A study of Mus musculus with 8 samples.

Results

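The genes described here encode the proteasome, taken as every gene whose symbol in the array annotation starts with Psma, Psmb, Psmc, Psmd or Psme, apart from the inducible subunits Psmb8, Psmb9 and Psmb10. On probe sets with 1 gene symbol they number 41 of the 18194 genes measured, with 87 probe sets in all, and 39 of them were among the 10916 genes bright enough to test. RNA was measured on Affymetrix arrays in 3T3-L1 adipocytes, fat cells differentiated in culture from a single mouse fibroblast line. Tunicamycin, an inhibitor of N-linked glycosylation that disturbs protein folding in the endoplasmic reticulum (ER), was present for 4 h (1 array), 8 h (1 array) or 12 h (2 arrays). Control cultures were taken at 4 h (1 array), 8 h (2 arrays) and 12 h (1 array). The replicates are biological according to the labels, and no source used here gives the tunicamycin dose.

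The proteasome is the protease that degrades proteins tagged with ubiquitin, including those pulled out of the ER when they fail to fold. Its 20S core is a barrel of outer alpha rings (Psma genes) and inner beta rings (Psmb genes), and the active sites are in the beta rings. The 19S cap that binds and unfolds substrates has a ring of ATPases (Psmc genes) and a set of other subunits that bind ubiquitin, remove it or hold the cap together (Psmd genes). Psme genes encode other activators that open the core. In mammalian cells the transcription factor NRF1 raises subunit genes together through antioxidant response elements when proteasome activity is short, and NRF2 acts on similar elements.

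The symbol rule takes in some genes that encode no subunit. Psmc3ip encodes a cofactor of meiotic recombination and Psme3ip1 a protein that binds the activator PA28gamma, while Psmd5, Psmd9 and Psmd10 encode chaperones that help to assemble the ATPase ring. Psma8, the alpha subunit of germ cell proteasomes, had normalised intensities of 0 to 2.98 over the 8 arrays, and Psmb11, the beta subunit of thymic epithelium, of 0 to 19.4. Both lay below the filter and were not tested. One further probe set whose several symbols include such a gene was left out.

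Values below are quantile-normalised intensities, and fold changes are log2 ratios, tunicamycin over control, given with their standard error (SE) from limma. A gene was called when its Benjamini-Hochberg adjusted p over the 10916 tested genes was under 0.05. Over the tested genes replicates had a correlation of 0.973 at 12 h with tunicamycin and of 0.984 at 8 h in controls. Among the 39 tested members the median absolute difference was 0.0969 log2 units within the tunicamycin pair and 0.0642 within the control pair. The ratio of 3' to 5' beta-actin signal, a measure of RNA integrity, was 2.81 on the 4 h tunicamycin array and 1.67 to 1.71 on the other tunicamycin arrays, against 1.51 to 1.82 on the controls. BioC over BioB, probe sets for spiked hybridisation controls, gave 0.645 to 0.856 on the 12 h arrays, with 2.08 to 2.75 elsewhere. The part of these differences in the results below was not tested.

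Over all times the proteasome genes moved little. Of the 39 tested, 7 fell and 1 rose with tunicamycin, while 20.7% of all tested genes were called, 9.68% lower and 11.1% higher. The calls therefore make up a share close to that of genes in general. The median log2 fold change of the 39 was -0.11, against -0.01 for all tested genes, and 10 of the 39 values were above 0, against 49.2% of all tested genes. No member (0 of 39) reached an absolute value of 1, which 5.18% of tested genes did, and the extremes were -0.55 for Psma1 and 0.45 for Psme3. The 95% intervals of the single genes reached from -0.82 at the lowest bound to 0.84 at the highest, so all 39 lay within -1 and 1. The median absolute value was 0.20 for the 39 genes and 0.26 for all tested genes. The members were brighter than tested genes in general, with array medians of 10.26 to 10.41 log2 units against 7.44 to 7.53. The part of brightness in these comparisons was not tested.

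**Figure D1:**
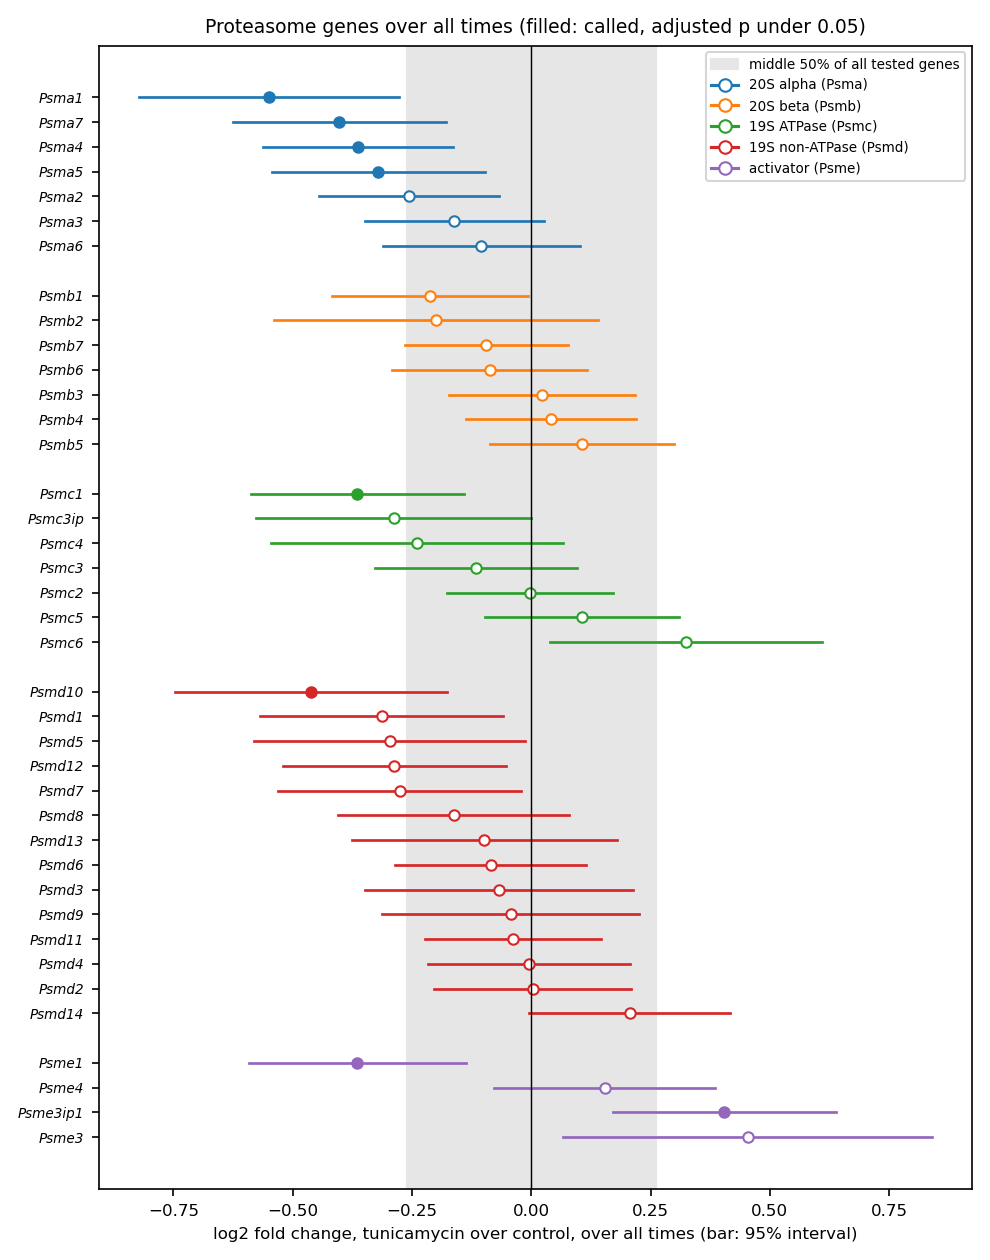
Log2 fold change of each tested proteasome gene, tunicamycin over control over all times, on the x axis, with genes grouped by symbol prefix down the page; points are limma estimates, bars their 95% intervals, filled points the called genes, and the grey band the interval between the lower and upper quartiles of all tested genes. The 7 Psma genes all lie left of 0, while Psmb, Psmc and Psmd genes lie on both sides and Psme3 and Psme3ip1 lie farthest to the right.

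Counts of calls, among the members and among all tested genes, depended on single arrays and on scaling. Members called over all times numbered 13 (2 higher and 11 lower) without the 4 h tunicamycin array and also without the 4 h control, 0 without the 8 h tunicamycin array, 3 without tunicamycin 12 h replicate 1, 5 without replicate 2, 1 without either 8 h control, and 0 without the 12 h control. The 4 h and 8 h arrays alone, which share the higher ratio of BioC over BioB, gave 0 calls, and the 12 h arrays alone 4. With the deposited scaling kept, 0 members were higher and 1 lower, and with median centring 0 were higher and 3 lower.

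The outer ring of the core held most of the lower genes. Of the 7 tested Psma genes 4 fell and 0 rose, against 9.68% of all tested genes called lower and 11.1% higher, and the median log2 fold change was -0.32. In 5 of the 7 every tunicamycin array lay below the controls of its time, a pattern that 18.8% of all tested genes and 13 of the 39 members had. Every tunicamycin array lay above its time's controls for 3 members and for 20.1% of tested genes.

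Psma1 had the lowest value of all members. Its intensity was 2679 at 4 h, 1535 at 8 h, and 1349 and 1301 at 12 h with tunicamycin, against 2816 at 4 h, 2673 and 2627 at 8 h, and 2112 at 12 h in controls. The 8 h and 12 h tunicamycin arrays lay below every control, while the 4 h tunicamycin array was close to its own control. The means were 1716 ± 650.1 with tunicamycin and 2557 ± 307 in controls (SD, 4 arrays per treatment). The fitted log2 fold change was -0.55, with an SE of 0.12 (adjusted p = 0.0130), or 0.683 of the control level. Psma1 kept its call in 13 of the 18 alternative settings tried, and its highest adjusted p with an array left out was 0.124. The other called members kept theirs in fewer settings: Psma4 in 9 of the 18, Psma7 in 8, Psme3ip1 in 7, Psmd10 and Psme1 in 6, Psmc1 in 5 and Psma5 in 3.

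Psma4, Psma5 and Psma7 encode other alpha subunits. Psma4 measured 1340 at 4 h, 1301 at 8 h, and 1364 and 1480 at 12 h with tunicamycin, against 1544, 1784 and 1785, and 1866 in controls at the same times. All 4 tunicamycin arrays lay below all 4 controls, and its log2 fold change was -0.36 (SE 0.09, adjusted p = 0.0197). Psma7 measured 1464, 1227, and 1272 and 1385 with tunicamycin, against 1609, 1748 and 1838, and 1824 in controls. Here too the groups did not overlap, and the log2 fold change was -0.40 (SE 0.10, adjusted p = 0.0205). Psma5 measured 2148, 1608, and 1434 and 1415 with tunicamycin, against 2148, 2183 and 2200, and 1926 in controls. Its 4 h arrays were level with each other, the later tunicamycin arrays lay below every control, and its log2 fold change was -0.32 (SE 0.10, adjusted p = 0.0485).

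The remaining alpha subunits were not called. Psma2 had a log2 fold change of -0.26 (adjusted p = 0.0568) and Psma3 of -0.16. Psma6 had the highest value of the ring, with intensities of 2338, 2069, and 1854 and 1709 with tunicamycin, against 2246, 2100 and 2145, and 2186 in controls. The 4 h tunicamycin array was above every control and the 12 h pair below every control, which gave -0.11 over all times (adjusted p = 0.454). That value was 0.00361 without the 12 h control.

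**Figure D2:**
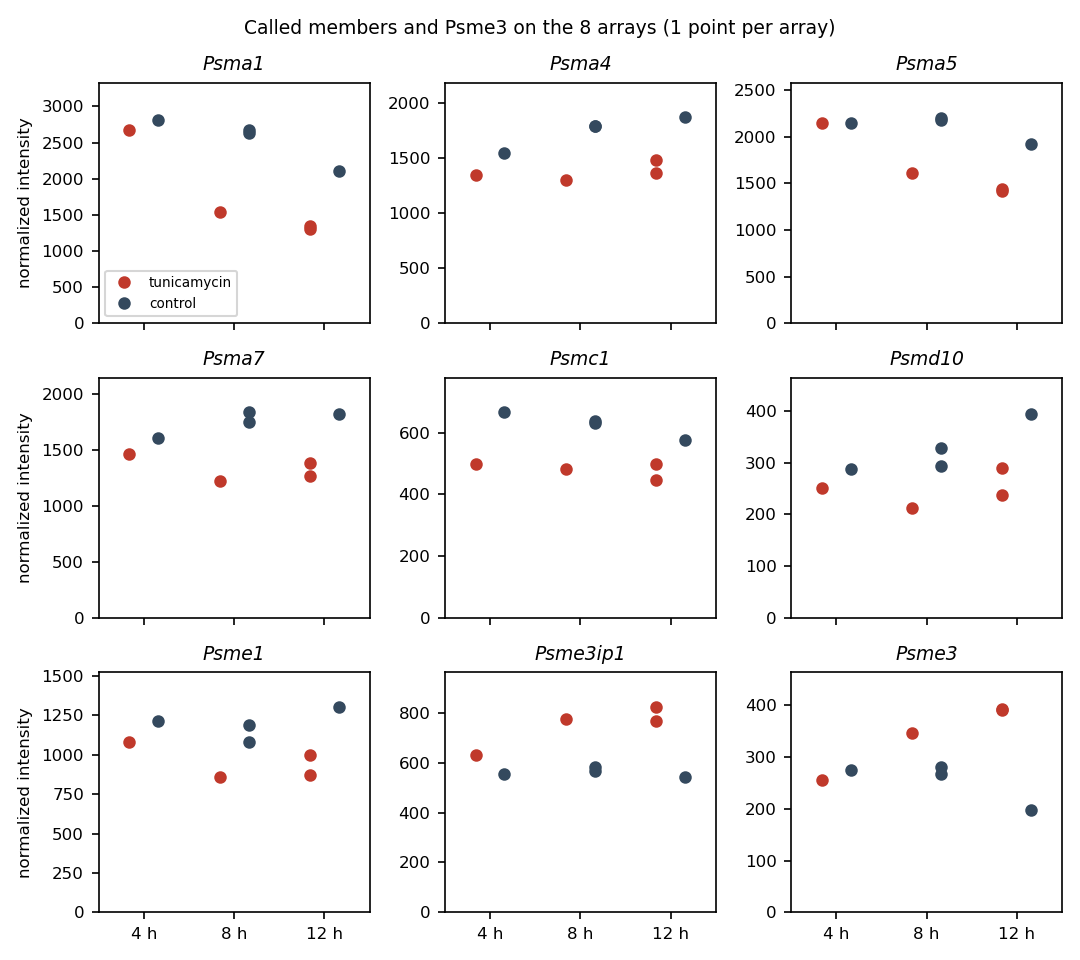
Normalised intensity of Psme3 and the 8 called proteasome genes on every array (y axis, starting at 0) by time in hours (x axis), with tunicamycin arrays left of the controls at each time; each point is 1 array. For Psma1 the 8 h and 12 h tunicamycin arrays sit at 1301 to 1535, below all controls, and for Psme3 the 12 h tunicamycin arrays sit at 390 and 393, against 197 on the 12 h control.

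None of the 7 tested beta subunits was called (limma, 0 of 7, and 1, Psmb1, at an unadjusted p under 0.05). Of all tested genes, 9.68% were called lower and 11.1% higher. The median log2 fold change of the beta subunits was -0.09. The catalytic subunits carry the chymotrypsin-like (Psmb5), caspase-like (Psmb6) and trypsin-like (Psmb7) activities. Psmb5 measured 1695, 1793, and 1885 and 1943 with tunicamycin at 4 h, 8 h and 12 h, against 1592, 1601 and 1829, and 1714 in controls. The ranges overlapped, and the log2 fold change was 0.11 (adjusted p = 0.415), the highest of the beta ring; with the deposited scaling it was -0.237, where the median of all genes was -0.31. Psmb6 measured 1675, 1428, and 1882 and 1816 with tunicamycin, against 1599, 1697 and 1735, and 1883 in controls. It lay above its control at 4 h and below at 8 h, and its log2 fold change was -0.09 (adjusted p = 0.533), or 0.0138 without the 8 h tunicamycin array. Psmb7 measured 2739, 2767, and 2993 and 3025 with tunicamycin, against 2778, 3127 and 3207, and 3114 in controls. Every tunicamycin array was below its time's controls, by little, and the log2 fold change was -0.09 (adjusted p = 0.415). Psmb1, a structural beta subunit, had the lowest value of the ring. It measured 2651, 2273, and 2379 and 2221 with tunicamycin, against 2569, 2828 and 2703, and 2897 in controls, a log2 fold change of -0.21 (adjusted p = 0.129). Its tunicamycin arrays at 8 h and 12 h lay below every control, and the 4 h one did not. The other 3, Psmb2, Psmb3 and Psmb4, lay between -0.20 and 0.04.

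Among the 7 tested genes with the Psmc prefix, 1 fell and 0 rose, against 9.68% and 11.1% of all tested genes. Their median log2 fold change was -0.12. Psmc1, an ATPase of the 19S ring, measured 497.2 at 4 h, 481.4 at 8 h, and 445.9 and 497.5 at 12 h with tunicamycin, against 666.2, 637.4 and 633.1, and 576.1 in controls. All tunicamycin arrays lay below all controls, including at 4 h, and the log2 fold change was -0.36 (SE 0.10, adjusted p = 0.0307). Psmc6, another ATPase of the same ring, had the highest value. It measured 1310, 1647, and 983.7 and 1296 with tunicamycin, against 1121, 1104 and 1059, and 1040 in controls. The 8 h tunicamycin array stood well above the controls, but the 12 h pair lay on either side of their control, and the log2 fold change over all times was 0.32 (SE 0.13, adjusted p = 0.0992). The other 5, Psmc3ip, Psmc4, Psmc3, Psmc2 and Psmc5, lay between -0.29 and 0.11 and were not called.

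Among the 14 tested Psmd genes 1 fell and 0 rose, against 9.68% and 11.1% of all tested genes, and the median was -0.09. The gene that fell was Psmd10, the assembly chaperone gankyrin, which measured 250.3, 213.1, and 237.3 and 290.5 with tunicamycin, against 288.2, 327.9 and 294.3, and 394.7 in controls. Each tunicamycin array was below the controls of its time, and the log2 fold change was -0.46 (SE 0.13, adjusted p = 0.0311). Psmd14, the deubiquitinase of the cap that strips ubiquitin from substrates, had the highest value of the prefix. It measured 2012, 2158, and 2315 and 2338 with tunicamycin, against 1973, 2042 and 1883, and 1751 in controls. Each tunicamycin array was above its time's controls, with the widest gap at 12 h, and the log2 fold change was 0.21 (SE 0.09, adjusted p = 0.147); with the deposited scaling it was -0.117. The other 12 lay between -0.31 (Psmd1, the large scaffold subunit) and 0.00 (Psmd2, its counterpart) and were not called.

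The genes with the Psme prefix held values at both ends. Psme1, a subunit of the interferon-inducible activator PA28, measured 1079, 861.1, and 999 and 874.6 with tunicamycin, against 1215, 1187 and 1084, and 1303 in controls. All tunicamycin arrays lay below all controls, and Psme1 fell by 0.36 on the log2 scale (SE 0.10, adjusted p = 0.0327). Psme3ip1, which encodes neither a subunit nor an activator, was the only member that rose over all times. It measured 631.5, 774, and 765.9 and 822.2 with tunicamycin, against 553.6, 583.7 and 567.8, and 543.2 in controls. All tunicamycin arrays lay above all controls, and Psme3ip1 rose by 0.40 (SE 0.10, adjusted p = 0.0241). Psme3 encodes PA28gamma, a nuclear activator that works without ubiquitin. It measured 256.1, 346.6, and 392.8 and 389.6 with tunicamycin, against 274.8, 279.8 and 266.2, and 196.5 in controls. The 4 h tunicamycin array was below its control and the later ones above every control, and the value over all times was 0.45 (SE 0.17, adjusted p = 0.0904). It ran from 0.152 without the 12 h control to 0.662 without either 4 h array. Psme4, the activator PA200, had a log2 fold change of 0.15 and was not called.

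The effect was also estimated time by time. At 4 h, limma called 0 of the 39 members, against 0.357% of tested genes called higher and 0.0366% lower. At an unadjusted p under 0.05 there were 2, both lower. The median was -0.02, and 17 of the 39 values were above 0, against 53.4% of tested genes. The array with the high beta-actin ratio is the tunicamycin array of this comparison.

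At 8 h, 1 member rose and 6 fell, against 9.42% and 8.95% of tested genes, and the median was -0.22. Values above 0 numbered 7 of 39, against 48.6% of tested genes. The genes that fell were Psma1 by 0.79 (SE 0.11, adjusted p = 0.00248), Psma4, Psma5, Psma7, Psmd5 and Psmd7. Psmd7 encodes the partner subunit of the deubiquitinase Psmd14. The gene that rose was Psmc6, by 0.61 (SE 0.17, adjusted p = 0.0407). Of all tested genes, 18.4% were called at 8 h. That share was 0.357% with the deposited scaling, 11% with median centring and 17.3% after division of every array by its mean. The count of 7 was 1 without either 8 h control, 0 with the deposited scaling, 1 lower with median centring, and 1 higher and 3 lower after division of every array by its mean.

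At 12 h, 3 members rose and 5 fell, against 10.1% and 10.9% of tested genes, and the median was -0.09. Values above 0 numbered 15 of 39, against 49.2% of tested genes. Psme3 rose by 0.98 (SE 0.15, adjusted p = 0.00297), Psme3ip1 by 0.54 and Psmd14 by 0.41. The lone 12 h control was the lowest control for Psme3 (196.5), Psme3ip1 (543.2) and Psmd14 (1751). Psma1 fell by 0.67 (SE 0.11, adjusted p = 0.00407), and Psma5, Psma7, Psmd1 and Psme1 fell as well, Psmd1 by 0.53 and Psme1 by 0.48. The same array was the highest control for Psmd1 (1166) and Psme1 (1303), and the lowest for Psma1 (2112) and Psma5 (1926). For Psma7 (1824) it lay between other controls. The count of 8 was 3 without either 8 h control, and 5 without tunicamycin 12 h replicate 1. It was 0 with the deposited scaling, 1 higher and 3 lower with median centring, and 3 higher and 1 lower with division by the mean. In that order, these settings called 0.678%, 16.7% and 20.7% of all tested genes at 12 h, against 21% with quantile normalisation.

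The median log2 fold change of the Psma genes was -0.09 at 4 h, -0.45 at 8 h and -0.39 at 12 h, with 0 of 7 values above 0 at 8 h and at 12 h. That of the Psmb genes was 0.07, -0.19 and 0.07, and that of the Psmd genes -0.06, -0.26 and -0.04. The Psma median thus stayed low at 12 h, while the Psmb and Psmd medians were nearer 0 at 12 h than at 8 h. The 7 Psmc genes had medians of -0.01, -0.03 and -0.11, and the 4 Psme genes of 0.03, 0.16 and 0.43. These medians are descriptions, and their differences between times were not tested.

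**Figure D3:**
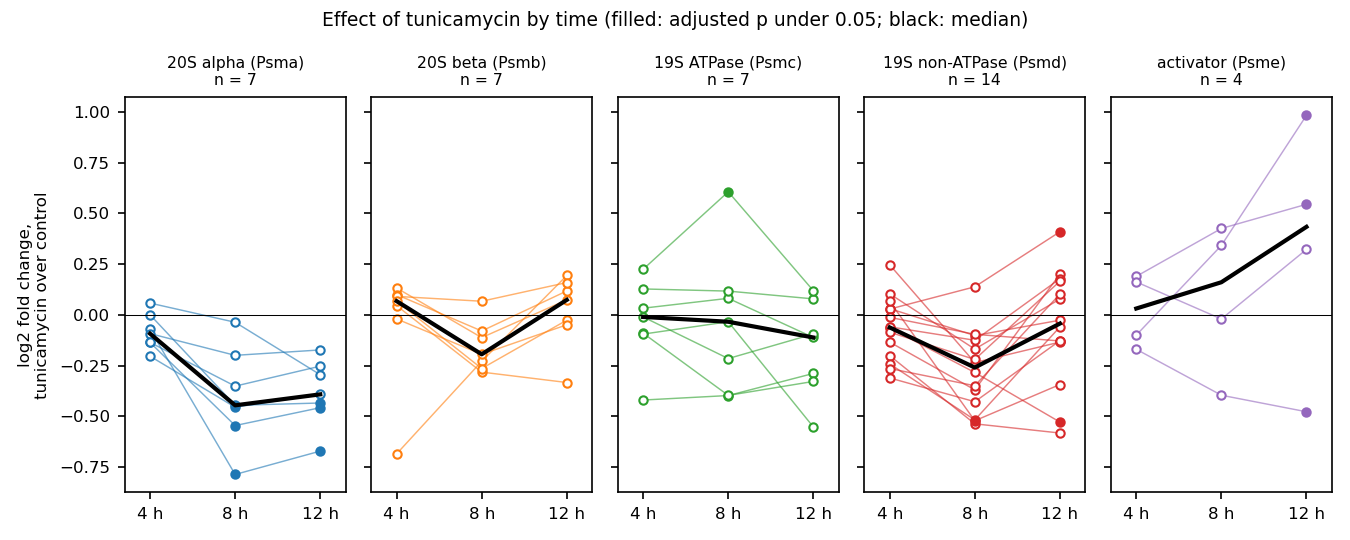
Log2 fold change of the 39 tested proteasome genes at 4, 8 and 12 h (x axis, hours), tunicamycin over control; each thin line is 1 gene, black lines are medians by prefix and filled points are called genes. Over all 39 genes the medians are -0.02, -0.22 and -0.09; Psma1 drops to -0.79 at 8 h, and Psme3 reaches 0.98 at 12 h.

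Differences of the effect between times were tested themselves. The F test over the 3 times called 0 of the 39 members (limma; 3 at an unadjusted p under 0.05), against 1.72% of tested genes, and the lowest adjusted p was 0.0992, for Psme3. Between 8 h and 4 h, limma called 0 members (3 at an unadjusted p under 0.05), against 0.595% of tested genes. Between 12 h and 4 h, 1 member was called, against 2.93% of tested genes. It was Psme3, whose effect was 1.08 log2 units higher at 12 h than at 4 h (SE 0.23, adjusted p = 0.0498). That call was lost without either 8 h control (adjusted p = 0.115 and 0.114) and without either tunicamycin 12 h array (adjusted p = 0.0638 and 0.0696). Between 12 h and 8 h, limma called 0 members and 0% of tested genes; at an unadjusted p under 0.05 there were 4 members, all with the higher effect at 12 h. The ratio of BioC over BioB separates the 12 h arrays from the rest, so its part in differences that involve 12 h cannot be told apart from time.

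Several genes have more than 1 probe set, and the brightest was used. Of 30 other tested probe sets of the members, 24 had the sign of the one used and 6 the opposite sign, 0 of these 6 called. For Psme3 the other tested probe set had a log2 fold change of 0.18 over all times and 0.22 at 12 h. Averaged over its probe sets, Psme3 was at 0.621 at 12 h and was not called (adjusted p = 0.155). Averages over probe sets, here and below, weight all probe sets of a gene equally, including any below the filter of 4.19 log2 units. For Psme3 they include a probe set with a mean of 2.34 log2 units, and for Psma1 a probe set at 3.75. Psma1 averaged over its probe sets was at -0.882 at 8 h and -0.758 at 12 h, uncalled at both (adjusted p = 0.0783 and 0.104). Its other tested probe sets, both dimmer than the one used, were at -0.835 and -0.904 over all times. In a limma fit of all 19169 tested probe sets the first was not called (adjusted p = 0.0677) and the second was (adjusted p = 0.0202).

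The authors' deposited table of ratios at each time, which was not used in any test here, can be set beside these values. In the authors' deposited tables the 39 members had a median log10 ratio of -0.00384 at 4 h, -0.0459 at 8 h and -0.0261 at 12 h, with 21, 29 and 23 of them below 0. The authors' deposited tables give all tested genes a median of 0.0118, -0.00113 and -0.012. The authors' deposited tables list Psma1 at -0.0532, -0.222 and -0.229, and Psme3 at -0.0274, 0.107 and 0.244, at the same times. On the log2 scale the authors' deposited ratios are -0.1767, -0.7371 and -0.7622 for Psma1, and -0.09105, 0.3556 and 0.8114 for Psme3. No source used here states which way these ratios run, and they were taken as tunicamycin over control, because over all tested genes they correlated positively with the fold changes computed here (r = 0.816, 0.926 and 0.915).

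NRF1 and NRF2 act through antioxidant response elements, so the promoter stretches with letters that match the core of that element are shown. Of the 41 genes, 34 had an entry in a table of RefSeq promoters (assembly GRCm38.p6), and Psma8, Psmb1, Psmb2, Psmb7, Psmc3, Psmd3 and Psmd7 did not. In the 250 bases before the start, the element's core TGACNNNGC was searched on both strands. It was found in 5 of the 34 (14.7%), against 11.5% of all 27025 genes with an entry. The 5 stretches follow 5′ to 3′ on the gene's strand, with the core, or its reverse complement, in capitals. They lie at chr14:54618009-54618067 (minus strand) for Psmb5, chr11:70525323-70525356 (plus) for Psmb6, chr14:45329574-45329630 (plus) for Psmc6, chr11:107479278-107479314 (plus) for Psmd12 and chr5:123228134-123228189 (plus) for Psmd9.
Psmb5: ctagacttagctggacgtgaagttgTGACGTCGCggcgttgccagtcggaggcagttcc
Psmb6: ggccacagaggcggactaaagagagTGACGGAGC
Psmc6: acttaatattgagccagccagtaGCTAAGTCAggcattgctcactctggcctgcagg
Psmd12: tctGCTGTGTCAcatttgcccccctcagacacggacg
Psmd9: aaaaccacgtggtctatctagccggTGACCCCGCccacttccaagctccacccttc

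None of these 5 genes was called over all times (limma, 0 of 5, and 2, Psmc6 and Psmd12, at an unadjusted p under 0.05). Their median log2 fold change was -0.04, against -0.13 for the 28 tested members whose listed promoter lacks the core. A match is a description of the letters and shows no binding.

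Elements of the ER stress response were searched in the same windows. The ER stress element was in 0 of the 34, against 0.13% of all genes. The ATF4 element core TGATGNAAN was in 1 (2.94%), against 3.89%. The NF-Y box CCAAT, which is also the start of the ER stress element, was in 15 (44.1%), against 37.5%, and CCACG, the end of that element, in 12 (35.3%), against 31.0%. Psma1, the member with the lowest fold change, is shown for its pair of NF-Y boxes, in capitals, the first as the reverse complement, at chr7:114276195-114276257 (minus strand).
Psma1: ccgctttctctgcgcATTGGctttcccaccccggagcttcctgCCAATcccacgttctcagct

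Other genes of the pathway, taken from lists written from general knowledge, were read in the same fit. Of 6 tested genes that control subunit genes through NRF1 and NRF2, 3 rose and 0 fell, against 11.1% of all tested genes called higher and 9.68% lower, and the median was 0.45, against -0.01 for all tested genes. Nfe2l1, which encodes NRF1, measured 821.8 at 4 h, 1069 at 8 h, and 1011 and 935.8 at 12 h with tunicamycin, against 525.6, 490.3 and 572, and 463.2 in controls. All tunicamycin arrays lay above all controls, and it rose by 0.93 (SE 0.12, adjusted p = 0.00121). Mafk, a small Maf partner of both factors, rose by 1.10, and Nfe2l2, which encodes NRF2, by 0.48 (adjusted p = 0.0145). Averaged over its probe sets Nfe2l2 was at 0.208 and was not called (adjusted p = 0.347), and its call was also lost without the 8 h tunicamycin array (adjusted p = 0.113). With the deposited scaling it was at 0.202 and Nfe2l1 at 0.655, both uncalled. Ngly1, the glycanase that NRF1 needs to become active, measured 489.6, 417.1, and 338 and 373 with tunicamycin, against 426.7, 436.7 and 433.7, and 433.4 in controls. It was above its control at 4 h and below at 12 h, and was not called over all times (-0.07, adjusted p = 0.705; 0.0498 without the 12 h control). The protease Ddi2, which cleaves NRF1, was not analysed here, and Maff was below the filter.

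Of 11 tested genes of the complex of VCP, the ATPase that pulls proteins out of the ER membrane, 4 rose and 0 fell, with a median of 0.24; of all tested genes, 11.1% were called higher and 9.68% lower. Vcp measured 2278, 3224, and 3618 and 3730 with tunicamycin, against 2130, 2516 and 2536, and 2024 in controls. Each tunicamycin array was above its time's controls, least at 4 h, and the log2 fold change was 0.47 (SE 0.12, adjusted p = 0.0268). Ubxn4, which brings VCP to the ER, rose by 0.62, Zfand2b by 0.51 and Faf1, a VCP cofactor, by 0.46. Averaged over their probe sets none of these 4 was called, with values of 0.363 for Vcp, 0.405 for Ubxn4, 0.418 for Zfand2b and 0.250 for Faf1 (adjusted p = 0.327, 0.0523, 0.0532 and 0.164). Vcp lost its call when any single array at 8 h or 12 h was left out, and was at 0.243 without the 12 h control (adjusted p = 0.156).

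Of 10 tested assembly factors and partners of the proteasome, 2 rose and 1 fell, against 11.1% and 9.68% of all tested genes, with a median of 0.06. Pomp, the maturation factor of the 20S core, measured 1785, 1561, and 1340 and 1601 with tunicamycin, against 2221, 2353 and 2155, and 2244 in controls. All tunicamycin arrays lay below all controls, and it fell by 0.50 (SE 0.10, adjusted p = 0.00814). Txnl1, a thioredoxin-like protein of the cap, rose by 0.44, and Akirin2, which brings proteasomes into the nucleus, by 0.37. Averaged over their probe sets Txnl1 was at 0.364 and Akirin2 at 0.180, both uncalled (adjusted p = 0.0854 and 0.716). With the deposited scaling they were at 0.101 and 0.0964.

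Of 5 tested E1 and shuttle genes 1 rose, Ubqln4 by 0.44, and 0 fell, with a median of 0.21. Of all tested genes, 11.1% were called higher and 9.68% lower. The 4 deubiquitinases and ligases of the proteasome held no call (limma, 0 of 4, and 0 at an unadjusted p under 0.05), with a median of -0.15. Among the inducible beta subunits left out of the gene set, Psmb8 fell by 0.87 (SE 0.20, adjusted p = 0.0132). Psmb9 at -0.54 and Psmb10 at -0.38 were not called over all times. At 12 h all 3 were called lower, against 10.9% of tested genes. The lone 12 h control was the highest control for Psmb8 (222), Psmb9 (135) and Psmb10 (730).

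**Figure D4:**
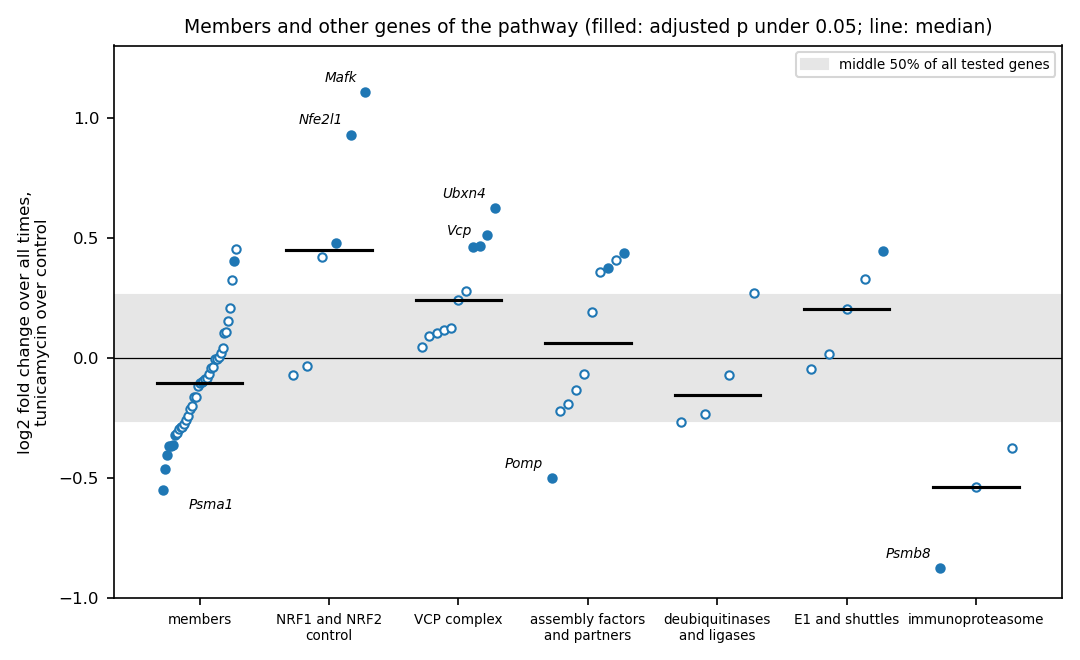
Log2 fold change over all times, tunicamycin over control (y axis), of the proteasome genes and of 6 lists of related genes (x axis); each point is 1 tested gene, filled where called, lines are list medians and the grey band is the interval between the lower and upper quartiles of all tested genes. Nfe2l1 at 0.93 and Mafk at 1.10 lie above every proteasome gene, and Psmb8 at -0.87 lies below them all.

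The tested genes outside the set whose levels followed the median profile of the members most closely over the 8 arrays were Ndufb5 (r = 0.990), Nit2 (0.989), Hars2 (0.978), Mpc1 (0.975) and Sdhd (0.974). The arrays share treatment and time, and these correlations are a description.

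Markers of cell types were read on the same arrays. Adipoq, which encodes the fat cell hormone adiponectin, was at 8020 to 9750 on all 8 arrays. Of 9 tested adipocyte markers 5 fell and 0 rose over all times, against 9.68% and 11.1% of all tested genes. Their median log2 fold change was -0.39. The genes that fell were Cebpa (-1.50), Pparg (-0.96), Lipe (-0.86), Cidec (-0.85) and Cd36 (-0.39). Slc2a4 (-0.34), Fabp4 (-0.13), Adipoq (-0.03) and Lpl (0.09) were not called. Of 3 tested preadipocyte or fibroblast markers 1 fell, Pdgfra (-1.21). Summed intensities of 9 adipocyte markers were 29500 to 39300 on tunicamycin arrays and 35900 to 41000 on controls, and those of 4 preadipocyte or fibroblast markers were 2860 to 4390 and 4580 to 6790. Adipoq, Fabp4 (8250 to 10800) and Lpl (7450 to 8810) made up most of the adipocyte sum. Fabp4 had the same value on every control and on the 8 h tunicamycin array. Quantile normalisation gives equal values to probe sets of equal rank on their arrays, so such a tie does not measure equal signal. The 4 macrophage markers summed to 151 to 346 with tunicamycin and 134 to 396 in controls. Csf1r, at 85 to 337, made up most of that sum, and Ptprc and Cd68 were below the filter. The 3 endothelial markers summed to 12.2 to 27.3 and 12.3 to 16.7, with Pecam1 at 0 on all arrays. In RNA from whole cultures, fewer cells of a type and less RNA per cell cannot be told apart, and the part of these markers in the results was not tested.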

How the data were processed

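The members and gene lists were chosen with earlier results of these data known. Biotin-labelled cRNA from total RNA of 8 cultures was measured on Affymetrix arrays, per the labels' protocols. The deposited values are linear intensities per probe set, per the file headers; no source used here names the software or scaling behind them. Of each array's values, 19.2% to 20.9% were at or below 0, and array medians ran from 9.56 to 22.0. The authors' deposited comparison tables, 1 per time, give each probe set a log10 ratio and the authors' deposited p-value; these entered no test. Their 6 intensity columns match no single sample and were not used.

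Arrays were quantile normalised on the linear scale, values below 0 were set to 0, and log2(intensity + 2.956) was taken, the constant being the 10th percentile over the deposited values above 0. Folds of dim genes are understated on this scale. Of 45101 probe sets, 34958 had 1 symbol in the platform annotation, 932 several and 9211 none. Each gene took its probe set with the highest mean, and genes at or above the 40th percentile (4.19 log2, about 15.3 units) were tested.

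Tests used limma 3.58.1 in R 4.3.3 (eBayes with an intensity trend), were tested on simulated data, and are two-sided with Benjamini-Hochberg adjustment. The effect over all times is the treatment term of a model with time and treatment (4 residual and 5.89 prior degrees of freedom), whose residual also holds differences of the effect between times. Single times are contrasts of group means (2 residual and 6.37 prior degrees of freedom, from the pairs at 12 h with tunicamycin and at 8 h in controls), with lone arrays assumed to vary like these. Figures used matplotlib 3.10.9 in Python 3.11.15. No 2 arrays were identical (0 pairs). The number of arrays limits the precision.

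Genes were named by rule: per prefix, the members with the lowest and highest fold change, those called for a difference between times, any member called against the prevailing direction, and the catalytic subunits, all with every array's value. Other called members are named too. From each list the called genes with the largest changes were named, up to 4, with Nfe2l1, Ngly1 and Vcp whatever their call, and the 5 genes most like the members' median profile. Alternatives covered scaling, filter, probe sets, pseudocount, variance model, replicate number, single arrays, and the 12 h arrays apart from the others; those for Psme3 and Psma1 at single times were chosen after seeing the data. Some of the listed pathway and marker genes were not analysed here.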

Additional observations from a re-analysis of the deposited data

Results flagged for a closer look

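The effect of tunicamycin on Psme3 was 1.08 log2 units higher at 12 h than at 4 h in a test of that difference (limma, adjusted p = 0.0498, SE 0.23), and Psme3 was the only one of 39 tested proteasome genes so called. Both tunicamycin arrays at 12 h lay above the control of that time, and the tunicamycin array at 4 h lay below its control. The lone 12 h control, at 196.5, was the lowest control, with the others at 266.2 to 279.8. From 8 h to 12 h the log2 value changed by -0.468 in controls and by 0.173 with tunicamycin. The other tested probe set of Psme3 had a log2 fold change of 0.05 at 4 h and 0.22 at 12 h. The part of the lone control in this result was not tested. The moderated F test over all 3 times gave an adjusted p of 0.0992 for the same gene. No group has enough arrays for a check of single outlying arrays.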

How the results depend on the processing

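Members called over all times, 8 with the settings given, numbered 1 with the deposited scaling, 3 with median centring, 1 without a filter (Psmc1), 0 without an intensity trend, 0 on the 4 h and 8 h arrays alone and 4 on the 12 h arrays alone. With a replicate block there were 5 (1 higher and 4 lower). The groups share only a replicate number, whose 1 testable pair of deviations correlated at r = 0.032. Over all times the share of all tested genes called was 7.79% with the deposited scaling, 15.5% with median centring and 3.18% without a filter. It was 13.4% without an intensity trend, 4.46% on the 4 h and 8 h arrays alone and 16.8% with the block, against 20.7%. The count at 8 h, 7, was 0, 1 and 4 with the deposited scaling, median centring and division by the array mean, 0 without a filter, 2 with the mean of all probe sets and 0 without the trend. In the same order, these settings called 0.357%, 11%, 17.3%, 1.69%, 10.3% and 6.57% of all tested genes, against 18.4% with the settings given. The count at 12 h, 8, was 0, 4 and 4 in the same 3 scalings, 2 without a filter and 1 without the trend. In that order, these settings called 0.678%, 16.7%, 20.7%, 3.5% and 10.2% of all tested genes, against 21% with the settings given. Leaving out 1 array at a time gave 0 to 13 calls over all times, 1 to 8 at 8 h and 3 to 9 at 12 h. At 4 h, and in the F test between times, every setting tried gave 0 calls. Psmb5 and Psmd14 turned to -0.237 and -0.117 with the deposited scaling, where the median of all genes was -0.31. Psma6 turned to 0.00361 and Ngly1 to 0.0498 on the 4 h and 8 h arrays alone. Leaving out single arrays gave -0.166 to 0.00361 for Psma6, -0.173 to 0.0498 for Ngly1 and -0.146 to 0.0138 for Psmb6. The call of Psme3 between 12 h and 4 h was also lost with the deposited scaling (1.26), median centring (0.958, adjusted p = 0.221), no filter (1.08, 0.0713), the mean of its probe sets (0.860, 0.355) and no trend (1.08, 0.191). The cause of these changes was not tested. No other direction of a named gene over all times was turned in these settings. The 12 called genes named from the related lists kept their calls over all times in 5 (Ubqln4), 6 (Akirin2 and Vcp), 8 (Faf1), 10 (Zfand2b), 11 (Txnl1), 13 (Nfe2l2 and Ubxn4), 14 (Pomp and Psmb8) or 17 (Nfe2l1 and Mafk) of 18 alternative settings.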
